A study of Mus musculus with 16 samples.

Results

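Voltage-gated sodium channels and their intracellular partners were followed in the heart ventricles of mice that lack the RNA-binding protein gene Rbpms in heart muscle cells. The group consists of 8 genes taken by symbol from the 54132 rows of the count table: the α subunit genes Scn4a, Scn7a and Scn10a, the β subunit genes Scn2b, Scn3b and Scn4b, and the fibroblast growth factor homologous factor (FHF) genes Fgf12 and Fgf13. The knockout (cKO) libraries came from mice that carried Myh6-Cre, a recombinase driven by a promoter active in cardiomyocytes, together with floxed Rbpms alleles (Rbpms fl/fl). The control libraries came from Rbpms fl/fl mice without Cre, so only cKO mice carried the recombinase. All mice were 8 weeks old, and each genotype gave 4 libraries, of which replicate 3 was female and the other 3 were male. Pooling of animals is not mentioned in the labels, and p-values therefore refer to library-to-library spread, which may be technical. The libraries of newborn mice were not analysed here.

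Sodium channel α subunits form the membrane pore that opens at the upstroke of the action potential. The β subunits are small membrane proteins with an immunoglobulin-like domain that tune gating, membrane delivery and adhesion. FHFs resemble growth factors but stay inside the cell, where they bind the cytoplasmic tail of α subunits and shift their inactivation. In the working ventricle the sodium current sets conduction speed, and Fgf13 is known as the main cardiac FHF of the mouse.

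Libraries held 20190334 to 24540433 counts, so that 1 CPM (library-scaled counts, with TMM factors from trimmed means of log ratios) stood for 19.1 to 25.3 counts. Rbpms had 38.8, 34.5, 27.1 and 26.9 CPM in the cKO libraries, against 191, 154, 193 and 102 CPM in the control libraries, and no library went against its label. The 10 cardiomyocyte markers summed to 42410 to 50750 CPM in cKO ventricles and 49090 to 64030 CPM in control ventricles, and none was at 0. Control replicate 4 stood apart, in that 11 skeletal muscle markers summed to 163.6 CPM there, against 5.26 to 9.99 CPM in the other control libraries.

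In cKO ventricles Scn7a and Scn3b rose, and Scn4a, Scn4b and Fgf13 fell (edgeR quasi-likelihood test, adjusted p under 0.05 over 16051 genes). Scn10a, Scn2b and Fgf12 did not pass. All 8 genes passed the filter on low counts, with every library of both genotypes above its level of 0.445 CPM. By the same test 9.64% of all genes rose and 9.64% fell, 19.3% in both directions together. Of all calls 50% were higher in cKO, and 66.1% when total counts were the only scaling. The median log2 fold change of the 8 genes was -0.06, beside 0.01 over all genes tested. The genotypes did not overlap in CPM for 4 of the 8 genes, Scn7a and Scn3b (higher in cKO) and Scn4a and Fgf13 (lower in cKO), beside 23.5% of all genes tested.

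**Figure D1:**
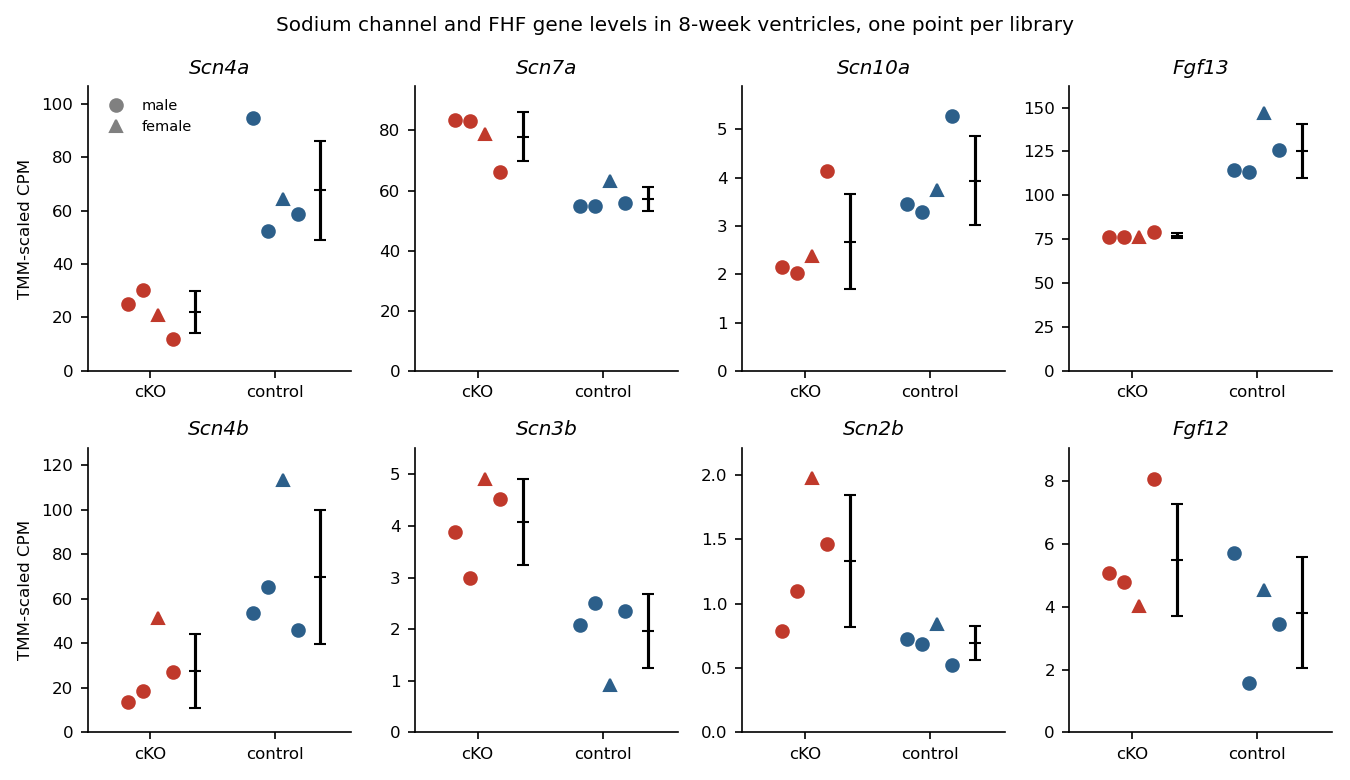
TMM-scaled CPM (vertical axes, each from 0) of the 8 genes in each 8-week library, cKO left and control right, with circles for males, triangles for females and bars for the mean ± SD of 4 libraries. The 4 cKO libraries lie below all controls for Scn4a and Fgf13 and above them for Scn7a and Scn3b, while the female library is the highest of its genotype for Scn4b in both genotypes.

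Among the α subunit genes, Scn4a encodes the channel that carries the action potential of skeletal muscle fibres. It lies on chromosome 11, from 106318592 to 106353288 on the minus strand (GRCm38, GENCODE M21; all positions below are of this release). Scn4a had 25.2, 30.3, 20.9 and 11.8 CPM in cKO replicates 1 to 4, against 94.6, 52.4, 64.3 and 58.8 CPM in control replicates 1 to 4. The highest cKO library was thus below the lowest control library. The means were 22.0 ± 7.82 CPM in cKO and 67.5 ± 18.7 CPM in control ventricles (SD, n = 4 each). Scn4a fell, with a log2 fold change of -1.62 ± 0.25 (SE, adjusted p = 0.00107 by edgeR), a 3.07-fold lower level. In bulk tissue, fewer cells of a type and less RNA per cell cannot be told apart. Skeletal muscle markers summed to 11.7 to 43.9 CPM in cKO libraries and 5.26 to 163.6 CPM in control libraries. Control replicate 4 held the 163.6 CPM, and the other controls (5.26 to 9.99 CPM) lay below all cKO libraries. Of the 11 markers 5 were tested and 0 rose or fell, with a median log2 fold change of 0.37, and Tnnc2 was at 0 in all libraries. These calls include control replicate 4, and marker calls without it were not examined. The markers' highest library, control replicate 4, had a Scn4a level between those of the other controls, and the Scn4a log2 fold change was -1.68 without it (adjusted p = 0.00285 by edgeR). The part of skeletal muscle in the Scn4a result was not tested.

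Scn7a encodes an atypical α subunit, known as a sodium-level sensor of glia and sensory circumventricular organs of the brain rather than as an action potential channel. The gene lies on chromosome 2 (66673425 to 66784914, minus strand). Scn7a had 83.6, 83.2, 78.7 and 66.1 CPM in cKO replicates 1 to 4, against 55.0, 55.0, 63.3 and 56.0 CPM in control replicates 1 to 4. All cKO libraries were above all controls, with the lowest cKO library (replicate 4) close to the highest control (replicate 3). The means were 77.9 ± 8.20 CPM in cKO and 57.3 ± 4.01 CPM in control ventricles (SD, n = 4 each). Scn7a rose 1.36-fold (log2 fold change 0.44 ± 0.09 SE, adjusted p = 0.0054 by edgeR).

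Fibroblast markers and some Schwann cell markers were, like Scn7a, higher in cKO than in control ventricles. All 8 fibroblast markers rose, with a median log2 fold change of 1.05, and they summed to 3422 to 4571 CPM in cKO libraries and 1412 to 2044 CPM in control libraries. Of 9 Schwann cell markers 8 were tested, 3 rose and 5 did not pass, with a median of 0.79 and sums of 56.5 to 58.2 CPM in cKO libraries and 30.8 to 44.6 CPM in control libraries. None of the markers in these lists was at 0 in all libraries. Within a genotype the fibroblast sum did not follow Scn7a in every library. Replicate 4 had the highest fibroblast sum (4571 CPM) and the lowest Scn7a level (66.1 CPM) of the cKO libraries. Control replicate 3 had the lowest fibroblast sum (1412 CPM) and the highest Scn7a level (63.3 CPM) of the controls. Its Schwann cell sum was the highest of the controls (44.6 CPM). The Schwann cell sum did not follow Scn7a in every library either. Of the cKO libraries, replicate 1 had the lowest Schwann cell sum (56.5 CPM) and the highest Scn7a level (83.6 CPM). The part of fibroblasts and Schwann cells in the Scn7a result was not tested.

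Scn10a encodes an α subunit first known from pain-sensing neurons (chromosome 9, 119608456 to 119719322, minus strand). It was low, with 46 to 96 counts in cKO libraries and 67 to 101 counts in control libraries. Scn10a had 2.15, 2.02, 2.37 and 4.13 CPM in cKO replicates 1 to 4, against 3.44, 3.28, 3.75 and 5.28 CPM in control replicates 1 to 4. Replicate 4 was the highest of its genotype in both, and only cKO replicate 4 reached the range of the controls. The log2 fold change was -0.56 ± 0.26 (SE, 95% interval -1.13 to 0.01), which did not pass (adjusted p = 0.168 by edgeR). Without cKO replicate 4 it was -0.85 and passed (adjusted p = 0.0303). Of 12 neuron markers, 5 were tested, Uchl1 rose, Dbh fell and Chat was at 0 in all libraries, and the list summed to 23.0 to 54.3 CPM in cKO libraries and 13.4 to 19.5 CPM in control libraries. Uchl1 alone had 14.4 to 44.5 CPM in cKO libraries and 3.04 to 8.15 CPM in control libraries. The other 11 neuron markers summed to 8.36 to 9.85 CPM in cKO libraries and 9.56 to 11.3 CPM in control libraries, ranges that overlapped.

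The β subunit genes went in opposite directions. Scn4b, whose product can be joined to α subunits by a disulfide bond, was the most abundant of them (chromosome 9, 45138395 to 45154152, plus strand). Scn4b had 13.7, 18.7, 51.2 and 27.0 CPM in cKO replicates 1 to 4, against 53.8, 65.4, 113 and 46.2 CPM in control replicates 1 to 4. The genotypes overlapped, because the female cKO library (replicate 3) lay above the lowest male control (replicate 4). The means were 27.6 ± 16.6 CPM in cKO and 69.7 ± 30.2 CPM in control ventricles (SD, n = 4 each). Scn4b fell 2.52-fold (log2 fold change -1.33 ± 0.37 SE, adjusted p = 0.0274 by edgeR). The call was lost without cKO replicate 1, 2 or 4 (adjusted p = 0.0663, 0.0737 and 0.062), without control replicate 3 (log2 fold change -0.996, adjusted p = 0.0668) and with robust dispersions (0.126). Without cKO replicate 3 the log2 fold change was -1.82 (adjusted p = 0.00282).

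The spread of Scn4b followed the sex label. The female library had the highest Scn4b level of its genotype in both, 51.2 CPM against 13.7 to 27.0 CPM in males among cKO libraries and 113 CPM against 46.2 to 65.4 CPM in males among controls. In a fit with genotype and sex, Scn4b was higher in females with a log2 difference of 1.21 ± 0.19 (SE, adjusted p = 0.0176 by edgeR). This fit was examined after the values were seen, and it rests on 1 female library per genotype, so sex and the single library cannot be told apart. It called 78 of 16051 genes by sex, and Scn4b was the only one of the 8 genes among them, with adjusted p from 0.457 to 0.947 for the others. With sex in the fit, the genotype difference of Scn4b was -1.39 (adjusted p = 0.00021), and in males only it was -1.48 (adjusted p = 0.000758). Between the 2 female libraries the log2 ratio of cKO to control was -1.15. Whether the genotype difference depends on sex was not tested.

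Scn3b encodes a β subunit that is not covalently bound to the channel (chromosome 9, 40269217 to 40291618, plus strand). Scn3b had 3.89, 2.99, 4.91 and 4.51 CPM in cKO replicates 1 to 4, against 2.08, 2.50, 0.926 and 2.35 CPM in control replicates 1 to 4. All cKO libraries were above all controls, and the female library was the highest cKO library and the lowest control. These levels rest on 68 to 124 counts in cKO libraries and 22 to 51 counts in control libraries. Scn3b rose 2.08-fold (log2 fold change 1.06 ± 0.29 SE, adjusted p = 0.0239 by edgeR). The call was lost without cKO replicate 1, 3 or 4 (adjusted p = 0.0511, 0.0651 and 0.0578) and in males only (log2 fold change 0.72, adjusted p = 0.0604).

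Scn2b, the β subunit gene next to Scn4b (chromosome 9, 45117782 to 45130070, plus strand), was the least abundant of the group. Both genes are read in the same direction, and 8.3 kb lie between them. Scn2b had 0.787, 1.10, 1.98 and 1.46 CPM in cKO replicates 1 to 4, against 0.725, 0.686, 0.842 and 0.523 CPM in control replicates 1 to 4. Only cKO replicate 1 fell within the range of the controls. Counts were 19 to 50 in cKO libraries and 10 to 20 in control libraries. The log2 fold change of Scn2b was 0.93 ± 0.34 (SE, 95% interval without adjustment 0.20 to 1.66), which did not pass (adjusted p = 0.0765 by edgeR). Without cKO replicate 1 it was 1.11 and passed (adjusted p = 0.0472). A lincRNA gene, Gm10684, and a predicted gene, Gm47266, lie on the other strand within Scn2b and Scn3b and had at most 2 counts in a library.

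Of the FHF genes, Fgf13 (chromosome X, 59062145 to 59568071, minus strand) had the smallest adjusted p of the group. Fgf13 had 76.2, 76.0, 76.5 and 79.2 CPM in cKO replicates 1 to 4, against 114, 114, 147 and 126 CPM in control replicates 1 to 4. The 4 cKO libraries lay close together, with a coefficient of variation of 1.91%, against 12.4% among the controls, and the genotypes were far from overlapping. What share of this spread is counting error was not tested. The means were 77.0 ± 1.47 CPM in cKO and 125 ± 15.5 CPM in control ventricles (SD, n = 4 each). Fgf13 fell 1.63-fold (log2 fold change -0.70 ± 0.09 SE, adjusted p = 0.000332 by edgeR). A pseudogene on the other strand within Fgf13, Gm14890, had 19 to 36 counts in cKO libraries and 27 to 36 counts in control libraries. Its relative Fgf12 (chromosome 16, 28160098 to 28753068, minus strand) binds the same part of the α subunit and was rare. Fgf12 had 5.09, 4.79, 4.04 and 8.08 CPM in cKO replicates 1 to 4, against 5.71, 1.57, 4.55 and 3.45 CPM in control replicates 1 to 4. The genotypes overlapped, with 1 high cKO library and 1 low control library. The log2 fold change of Fgf12 was 0.52 ± 0.33 (SE, 95% interval -0.21 to 1.25) and did not pass (adjusted p = 0.324 by edgeR).

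**Figure D2:**
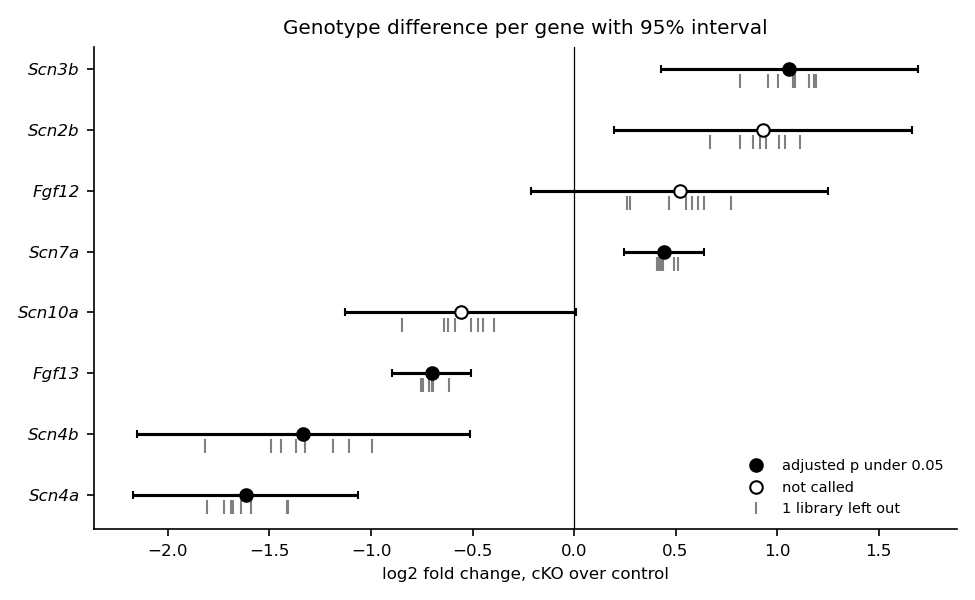
Log2 fold change of cKO over control (horizontal axis) for the 8 genes, with 95% intervals from the edgeR fit, filled points for genes that passed and open points for those that did not. Grey ticks give the fold change with 1 library left out in turn, which for Scn4b run from -1.82 to -0.996 and for Fgf13 from -0.75 to -0.62.

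Calls of Scn4a, Scn7a and Fgf13 held in each of the 18 other settings tried. Sequences before the listed starts of these genes were looked up as a description, and their part in the results was not tested. RefSeq starts (GRCm38.p6) were found for 7 of the 8 genes, with 4 starts each for Fgf12 and Fgf13, and gene counts do not separate the starts. The windows shown hold the 250 bases before a start of Scn7a (chr2:66784911-66785160) and before the first and the last listed start of Fgf13 (chrX:59585573-59585822 and chrX:59134437-59134686), all on the minus strand. They are those windows of the 3 genes with at most 30 bases in annotated exons. The Scn4a window had 186 such bases and is not shown. The first Fgf13 start and its window lie outside the annotated span of the gene (59062145 to 59568071), where no exon of it is listed. Capitals mark matches, on both strands and without overlap with each other, to the E-box CANNTG and the GATA site AGATAA.
Scn7a: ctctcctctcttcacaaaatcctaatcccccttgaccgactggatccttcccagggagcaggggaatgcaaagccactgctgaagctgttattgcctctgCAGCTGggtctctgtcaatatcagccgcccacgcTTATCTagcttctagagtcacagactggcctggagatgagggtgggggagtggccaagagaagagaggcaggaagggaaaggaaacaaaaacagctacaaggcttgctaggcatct
Fgf13, first start: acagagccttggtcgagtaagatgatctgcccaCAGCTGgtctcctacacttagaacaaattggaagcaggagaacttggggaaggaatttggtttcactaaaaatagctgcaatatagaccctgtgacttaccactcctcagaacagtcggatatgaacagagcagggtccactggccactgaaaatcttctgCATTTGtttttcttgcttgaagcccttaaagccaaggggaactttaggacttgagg
Fgf13, last start: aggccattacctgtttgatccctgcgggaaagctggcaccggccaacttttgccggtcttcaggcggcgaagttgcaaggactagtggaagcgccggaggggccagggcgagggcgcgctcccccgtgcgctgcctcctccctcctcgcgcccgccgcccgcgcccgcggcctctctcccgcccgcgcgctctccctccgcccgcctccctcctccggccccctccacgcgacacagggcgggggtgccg
The Scn7a window held 1 E-box and 1 GATA site, and the first Fgf13 window held 2 E-boxes. No match to the T-box element GGTGTGA or the TATA box TATAAA was found in these windows, and the last Fgf13 window held none of the 4 motifs. Over 32851 windows of the same length, 66.2% held an E-box, 9.99% a GATA site, 3.33% the T-box element and 12.4% the TATA box. GC content was 53.2% in the Scn7a window, 45.6% in the first Fgf13 window and 74.4% in the last.

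To compare levels between genes, CPM were divided by the length of annotated exons in kilobases. On this scale Fgf13 was the most abundant of the 8 genes in both genotypes, at 19.2 ± 0.367 in cKO and 31.1 ± 3.85 in control ventricles (CPM per kb, SD, n = 4 each). In cKO ventricles Scn7a (10.6 ± 1.12), Scn4b (5.55 ± 3.34) and Scn4a (3.13 ± 1.11) followed. In control ventricles the order was Scn4b (14.0 ± 6.06), Scn4a (9.59 ± 2.65) and Scn7a (7.81 ± 0.546). Fgf12, Scn10a, Scn3b and Scn2b stayed below 1.4 CPM per kb in every library. Neighbours in this order whose libraries overlapped were Scn7a with Scn4b, Scn4b with Scn4a, Fgf12 with Scn3b and Scn10a with Scn2b in cKO ventricles. In control ventricles the ranges of neighbours overlapped except between Fgf13 and Scn4b and between Scn7a and Fgf12.

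The summed length-scaled level of the 8 genes was 40.7 ± 3.12 CPM per kb in cKO and 64.2 ± 9.82 CPM per kb in control ventricles (SD, n = 4 each). Libraries ranged from 38.6 to 45.3 in cKO and from 57.6 to 78.6 in control ventricles, so they did not overlap. Fgf13 and Scn4a had already separated the genotypes in this direction, and Scn4b had fallen, so the sum adds no further result. It does not describe the 8 genes as a whole, since Scn7a and Scn3b rose. Fgf13 made up 47.3 ± 3.80% of this sum in cKO and 48.8 ± 3.58% in control ventricles. Scn7a made up 26.2 ± 3.17% in cKO and 12.3 ± 0.983% in control ventricles, and Scn4a 7.71 ± 2.84% in cKO and 15.1 ± 4.48% in control ventricles. The ratio of Scn4b to its neighbour Scn2b was 15.9 to 24.2 in cKO libraries and 69.3 to 126 in control libraries. It rests on only 19 to 50 Scn2b counts in cKO libraries and 10 to 20 in control libraries, and it was not tested. The ratio of Scn4a to Scn7a was 0.187 to 0.379 in cKO libraries and 0.993 to 1.79 in control libraries. Both genes had already separated the genotypes, in opposite directions, so this ratio adds no further result.

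**Figure D3:**
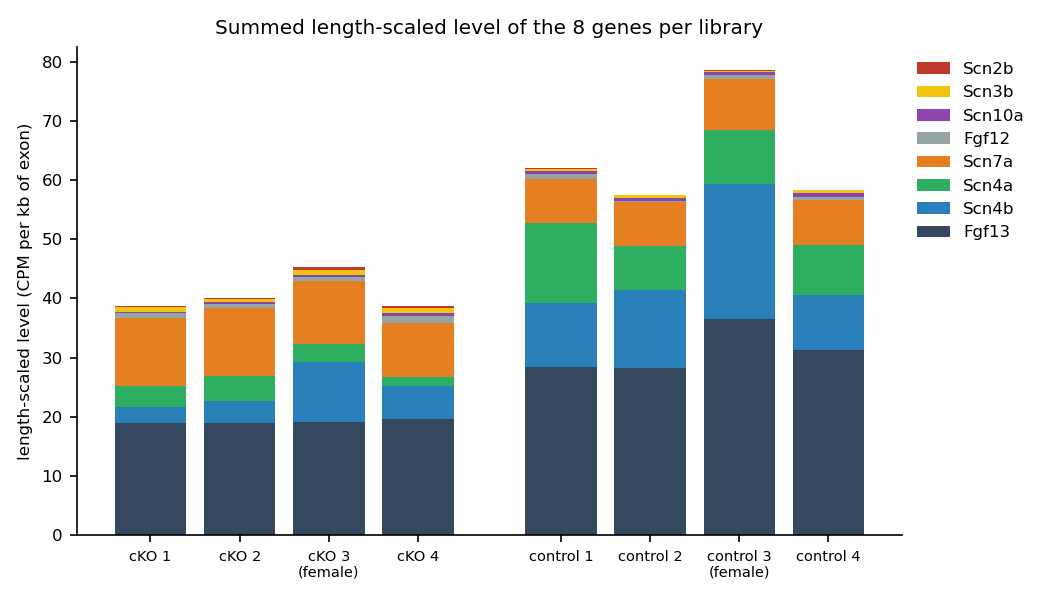
Length-scaled level (CPM per kb of annotated exon, stacked bars from 0) of the 8 genes in each cKO library (left) and control library (right). The stacks reach 38.6 to 45.3 in cKO and 57.6 to 78.6 in control libraries, with Fgf13 as the largest part in all 8.

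Other genes of these families and genes that anchor or regulate cardiac sodium channels were counted beside the group. Of 10 further α, β and FHF genes 7 were tested, 2 rose and 1 fell, with log2 fold changes from -0.61 to 1.13 and a median of 0.24. Their summed level was 444 to 645.6 CPM in cKO libraries and 681 to 922 CPM in control libraries. Most of this sum in every library came from the 1 gene that fell, so it does not describe the list as a whole. Of 28 anchoring and regulatory genes 27 were tested, 2 rose and 2 fell, with a median log2 fold change of -0.11. Gpd1l, a glycerol phosphate dehydrogenase relative known to affect sodium current, fell to 87.4 ± 7.22 CPM in cKO ventricles, against 126.9 ± 13.8 CPM in control ventricles (log2 fold change -0.54 ± 0.09 SE, adjusted p = 0.0022). Ank2, a membrane-anchoring ankyrin, fell to 282 ± 21.9 CPM in cKO, against 355 ± 22.2 CPM in control ventricles (log2 fold change -0.33 ± 0.08 SE, adjusted p = 0.0149). Slmap, a membrane protein of the sarcolemma, rose to 440.5 ± 30.8 CPM in cKO, against 327 ± 37.4 CPM in control ventricles (log2 fold change 0.43 ± 0.10 SE, adjusted p = 0.00819). Sntb2, a syntrophin that links channels to dystrophin, rose to 75.8 ± 4.13 CPM in cKO, against 62.0 ± 4.06 CPM in control ventricles (log2 fold change 0.29 ± 0.08 SE, adjusted p = 0.0196). These 4 genes are named because they passed, and their adjusted p-values are from the same edgeR fit. In each of the 4 the genotypes did not overlap, but the genes were picked for passing, so this adds no further result. Over all genes tested, 19.3% passed in either direction. The genotypes did not overlap for 23.5% of them, a share that the 4 picked genes cannot be set against.

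Marker lists of the other cells that ventricle tissue can hold were measured beside the group. Of 10 cardiomyocyte markers 2 fell and 0 rose, with a median log2 fold change of -0.21. Of 9 conduction and pacemaker markers tested of 10, 1 rose (Cntn2) and 2 fell (Hcn4 and Irx3), with a median of 0.09 and sums of 109 to 134 CPM in cKO and 123.5 to 155 CPM in control libraries. None of 7 endothelial markers passed (median -0.04), and of 7 mural cell markers 1 rose and 1 fell (median 0.01). Of 4 atrial markers 3 were tested and none passed, with sums of 62.6 to 246.5 CPM in cKO and 44.6 to 204 CPM in control libraries. Of 4 adipocyte markers 3 were tested and none passed, with sums of 2.97 to 22.6 CPM in cKO and 1.83 to 9.39 CPM in control libraries. The part of these cells in the results of the 8 genes was not tested.

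**Figure D4:**
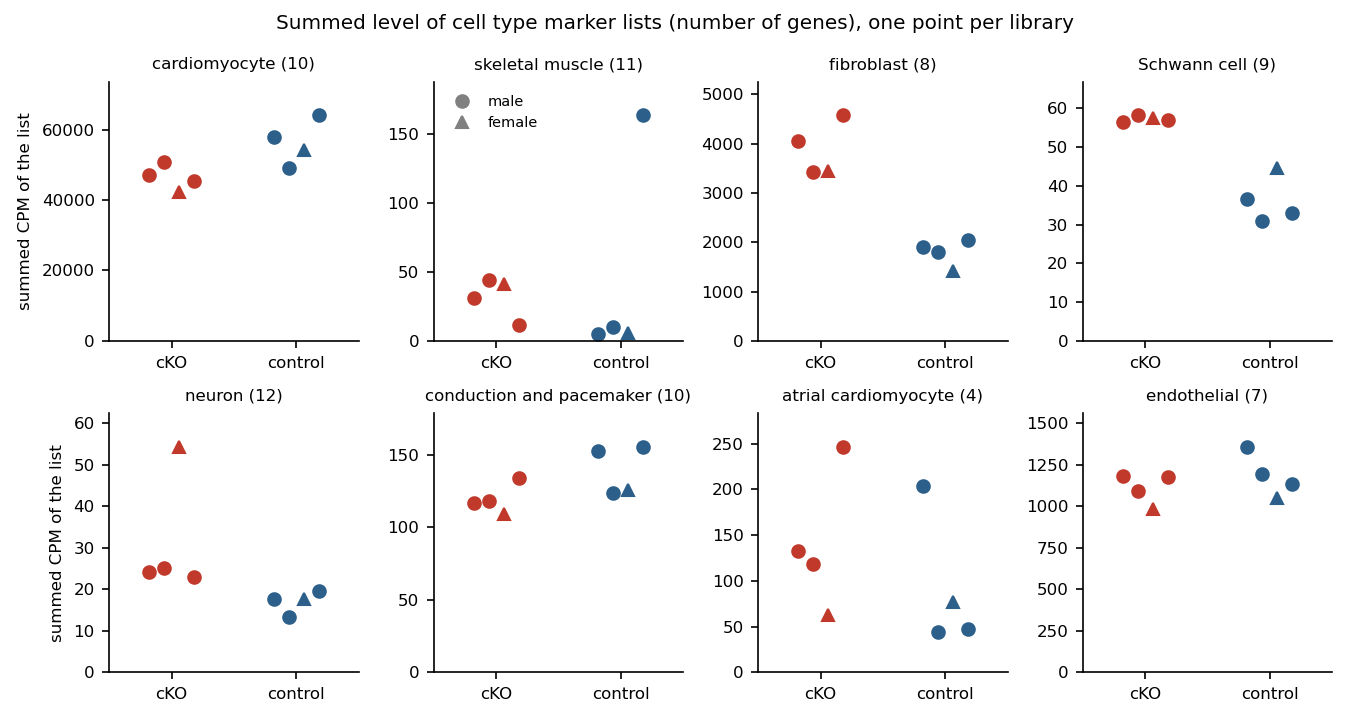
Summed TMM-scaled CPM (vertical axes from 0) of cell type marker lists in each library, cKO left and control right, with circles for males and triangles for females and the number of genes of each list in brackets. Fibroblast sums are 3422 to 4571 CPM in cKO and 1412 to 2044 CPM in control libraries, and the skeletal muscle sum of control replicate 4 (163.6 CPM) stands apart.

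The genes whose log2 CPM followed Scn7a and Fgf13 most closely over the 8 libraries were sought among 14034 genes with a mean of at least 1 CPM. For Scn7a they were Plscr1, Slco5a1 and Chl1, with Pearson correlations of 0.98, 0.98 and 0.97. For Fgf13 they were Bzw2, Mospd1 and Got1, each with 0.99. Got1, the cytosolic aspartate aminotransferase, averaged 387.5 CPM in cKO and 760 CPM in control ventricles. These correlations describe 8 libraries that share 1 genotype contrast, and the closest of many genes are high by selection.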

How the data were processed

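Poly(A) RNA from ventricles was sequenced in stranded, paired-end mode, according to the labels' protocols. The authors deposited raw counts by gene symbol, and the 8 libraries of 8-week-old mice were used. Tools listed in the submitters' processing notes are HISAT2 2.0.4, FastQC 0.11.4, edgeR 3.30.3 and featureCounts 1.6.0, and the builds are mm10 and GRCm38. The sources used here give no annotation release, strand setting or rule for multiply aligned reads.

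The 24 rows named by a number (0.115% to 0.132% of counts) were left out. Genotypes were compared with the quasi-likelihood test of edgeR 4.0.16 (R 4.3.3, limma 3.58.1), with TMM scaling, filterByExpr and Benjamini-Hochberg adjustment over 16051 genes, two-sided at 0.05. The SE of a log2 fold change is its size divided by the square root of F. The script was tested on simulated counts. Alternatives were RLE, upper-quartile and total-count scaling, no filter, a stricter filter (1 CPM in 4 libraries), DESeq2 1.42.0, limma-voom, robust dispersions, sex as a covariate, males only and each library left out. The sex term itself was read after the values were seen. Libraries of 1 genotype differed beyond counting noise (chi-square per degree of freedom 7.89 to 33.9). Log2 CPM for correlations used a prior count of 2. Exon lengths and positions are from GENCODE M21.

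The 8 genes and the gene lists were chosen with earlier results of these data known. By rule, named genes were the 8, Rbpms, called genes of the anchoring list, markers at 0, and the 3 genes closest to the riser and the faller with the smallest adjusted p. Genes overlapping one of the 8 on the other strand and single called markers were named outside this rule, after their values were seen. Some genes of these families and lists are not reported by name here.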

Additional observations from a re-analysis of the deposited data

Results flagged for a closer look

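Levels of single libraries were compared with the rest of their genotype in 16 groups of 4 (8 genes in 2 genotypes), and in 3 of them, from 2 libraries, the highest level lay further from the others than Dixon's 95% limit of 0.829 allows. Chance alone gives about 1 in 20 groups. The Scn7a level of control replicate 3, the female control, was 63.3 CPM, above the 55.0 to 56.0 CPM of the other controls. The Scn10a level of cKO replicate 4 was 4.13 CPM, above the 2.02 to 2.37 CPM of the other cKO libraries. The Fgf13 level of cKO replicate 4 was 79.2 CPM, above the 76.0 to 76.5 CPM of the other cKO libraries. These levels rest on 1730 to 1933 counts per library, and whether the gap exceeds counting error was not tested.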

How the results depend on the processing

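Directions of the 8 genes held in all settings in which each could be fitted; the stricter filter left Scn2b out. Of all values compared, 268 kept their direction and side of the threshold (counts: within 1.5-fold), 9 lost a call, 2 gained one and 8 counts moved. With 1 library left out, log2 fold changes ran from -0.85 to -0.39 for Scn10a, 0.67 to 1.11 for Scn2b, 0.82 to 1.19 for Scn3b and -1.82 to -0.996 for Scn4b. Scn3b was 0.72 in males only and Scn4b -1.33 with robust dispersions, both without a call. Of the 8 genes 1 rose in males only, 1 to 2 rose and 2 to 3 fell with a library left out, and 1 rose without cKO replicate 3 or 4. With total counts 1021 genes fell, against 1547 with TMM. Of the anchoring genes 1 fell with total counts, 4 fell with DESeq2, and 1 to 3 rose and 2 to 4 fell with a library left out. The cause of these shifts was not tested. No paired analysis was possible because no label pairs libraries across genotypes. Scn2b, Scn3b, Scn10a and Fgf12 had at most 188 counts in a library; what share of their spread is counting error was not tested.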
